A study of Mus musculus with 8 samples.

Results

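The miR-30 family was followed in cultured mouse oligodendrocytes, the cells that wrap axons in myelin, as they went from immature to mature cells. Its 5 members on the array, mmu-miR-30a, mmu-miR-30b, mmu-miR-30c, mmu-miR-30d and mmu-miR-30e (the prefix, for mouse, is left out below), were found by their exact names among the non-control features, with the opposite (star) strands left out. They were 5 of the 650 miRNAs listed on the array and were measured by 11 probes. The choice went by name, and was made with earlier results of these data known. The study profiled miRNAs on Agilent 1-colour arrays in total RNA from primary mouse oligodendrocyte cultures, to find miRNAs of the oligodendrocyte lineage. There were 3 arrays of immature cells at day 0, 2 arrays of immature cells at day 1 and 3 arrays of mature cells at day 6. By the series' design text, day 0 and day 1 stand for 1 and 2 days of oligodendrocyte precursor culture, and day 6 for 6 days in culture. All 8 samples were C57BL/6J with the genotype CNP-Cre, had no treatment, and were grown in a supplemented medium containing horse serum and thyroid hormones.

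CNP-Cre names a Cre recombinase under the control of Cnp, a gene of the oligodendrocyte lineage, and the labels name no other allele. Every group carried it, so no comparison here bears on it. The design text calls the samples of a day independent, while the labels do not say which animals or cultures each came from. The p-values therefore measure the spread between these samples. RNA came from whole cultures, so fewer cells of a type and less RNA per cell cannot be told apart.

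A miRNA guides an Argonaute protein to messenger RNAs that pair with it, chiefly through its seed near the 5′ end, and lowers their translation and stability. Each is cut from a hairpin whose other arm yields the star strand. Members of the miR-30 family share a seed, so they are taken to bind largely the same target sites. The family is made in many tissues, brain among them, and is best known for repressing Becn1, a gene of autophagy, and Snai1, a transcription factor of the epithelial-to-mesenchymal transition.

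The mature sequences are shown because they define the family and show how little separates some members. RefSeq's miRNA annotation on mouse build GRCm38.p6 held 3 of the 5 members. They are printed 5′ to 3′ with the seed, bases 2 to 8, in capitals, together with miR-384-5p, a miRNA outside the family by name that carries the same seed. miR-30b and miR-30d are named only.
miR-30a: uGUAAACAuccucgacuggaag
miR-30c: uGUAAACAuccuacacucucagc
miR-30e: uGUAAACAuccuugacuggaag
miR-384-5p: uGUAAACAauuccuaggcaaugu

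The seed GUAAACA was held by 4 of 1679 mature mouse miRNA names in that annotation, or 0.238%, and these were the 4 just shown. miR-30a and miR-30e were the same at 21 of 22 positions, the difference being C13U, counted from 1 at the 5′ end with the miR-30a base first. miR-30c differed from miR-30a at 5 of the 22 positions compared, and from miR-30e also at 5. miR-384-5p differed from miR-30a at 10 of 22 positions. How far each probe tells such close relatives apart was not tested, so the values of miR-30a and miR-30e in particular may share signal.

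The members come from hairpin genes at several places in the genome. Mature miR-30a lies at chr1:23272274-23272295 on the plus strand, and one of the miR-30c copies, from Mir30c-2, lies at chr1:23291714-23291736 on the same strand. The other miR-30c copy, from Mir30c-1, lies at chr4:120769584-120769606 on the minus strand, and miR-30e lies at chr4:120772660-120772681 on the minus strand. Between the hairpins Mir30a and Mir30c-2 there are 19361 bases, and between Mir30c-1 and Mir30e 2983 bases. Both hairpins on chromosome 4 overlap Nfyc, the gene of a subunit of the transcription factor NF-Y, and Mir30e also overlaps an entry named Mir30f, while no other annotated gene overlaps Mir30a or Mir30c-2. Mir30b and Mir30d are both on chromosome 15. Mature miR-30c from its 2 loci is identical, so its probes measure both together.

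The Mir30e hairpin, at chr4:120772606-120772697 on the minus strand, is shown because both of its arms were measured. The capitals mark miR-30e, toward the 5′ end, and its star strand miR-30e*, toward the 3′ end.
Mir30e hairpin: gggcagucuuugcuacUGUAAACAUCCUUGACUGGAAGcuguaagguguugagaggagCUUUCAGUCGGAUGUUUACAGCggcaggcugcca

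Of the 611 mouse miRNAs, 199 were well above background on at least 3 arrays and entered the tests, among them all 5 members. A probe was detected on an array when a share of at least 0.5 of its spots was well above background by the scanner's own call. A miRNA was detected when any of its probes was. Day 0 replicate 1 stood apart from the other arrays. It detected 61 miRNAs against 150 to 218 on the other 7, and its negative control spots scattered more, with a median absolute deviation of 30.2 intensity units against 2.54 to 3.88. On that array miR-30b and miR-30c were detected, while miR-30a, miR-30d and miR-30e were not well above background. The other 7 arrays each detected all 5 members. Results that rest on this array are therefore also given without it, at the scaling of all 8 arrays, and where so stated with the scaling set anew on the other 7 as well.

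The labelled cell type was checked against 3 miRNAs known from oligodendrocytes. On the arrays of day 0, replicates 1 to 3, the scaled intensity of miR-338-3p was 131, 2962 and 399. The day 1 arrays had 2293 and 203, and the day 6 arrays 2383, 744 and 1941. miR-219 and miR-138 were below detection on day 0 replicate 1 and day 1 replicate 2, where miR-338-3p was also lowest, and all 3 were detected on the other 6 arrays. Of the markers of other cells, 5 of 5 of neurons, 4 of 4 of astrocytes and 5 of 5 of microglia and leukocytes were detected on at least 1 array. So were 3 of 4 of fibroblasts and mural cells, where miR-145 was not, and 1 of 3 of epithelium and choroid plexus. All arrays detected 1 marker of neurons, 3 of astrocytes and 2 of microglia and leukocytes. The lists of astrocytes and of fibroblasts and mural cells share a miRNA, so a detected marker does not by itself place its cell type in the cultures. None of 2 erythroid, 2 endothelial and 3 muscle markers was detected on any array.

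Between mature and immature cells no member of the miR-30 family passed the test. In day 6 cells against the mean of the day 0 and day 1 means, 0 of 5 members were called at an adjusted p under 0.05 (limma, two-sided, Benjamini-Hochberg over 199 miRNAs), where 4 of 199, or 2.01%, of all tested miRNAs were called. The members' log2 folds lay between -0.19 and 0.17, with a median of -0.07, beside a median of 0.04 over all tested miRNAs. Without regard to sign, the median size was 0.17 for the members and 0.27 for all. At an unadjusted p under 0.05 there were 0 members and 24 miRNAs in all. On the scaling used here 2 members were above 0 and 3 below, but all 5 were above 0 with scaling to control probes and all 5 below 0 with no scaling. These scalings moved all miRNAs alike, with a median of 0.47 for the members and 0.55 for all under the first and of -0.41 and -0.28 under the second.

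**Figure D1:**
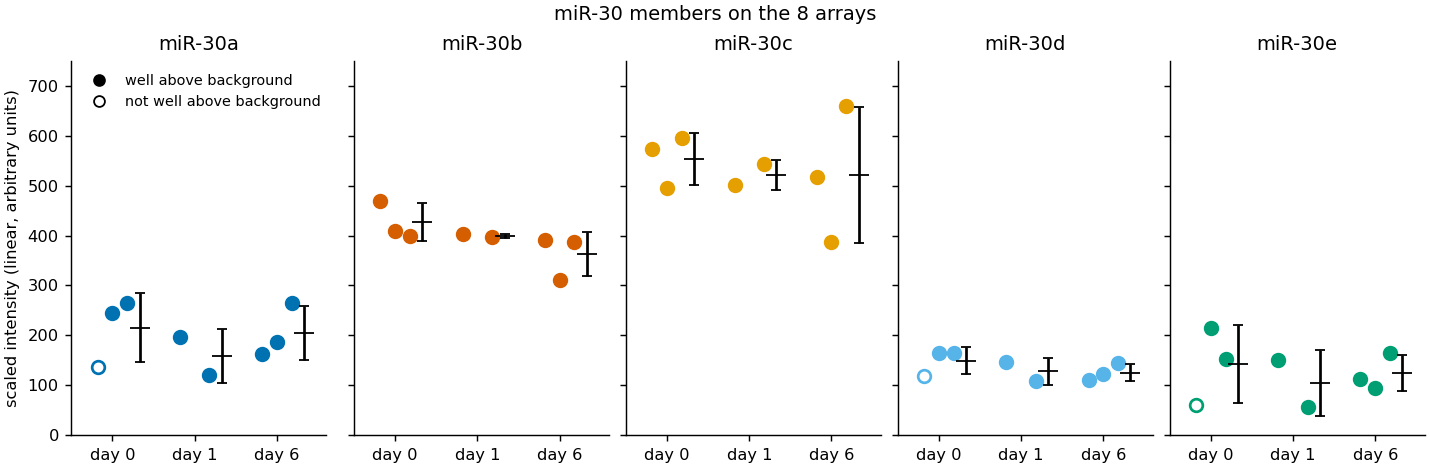
Scaled intensity (linear, arbitrary units) of the brightest probe of each member on the 8 arrays, by day; open circles were not well above background, and the bars give mean ± SD per day (n = 3, 2 and 3). The day 6 points overlap the immature points for every member but miR-30b, and levels of different members are not comparable because they come from different probes.

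The plot of scaled intensity by array holds the values given next for each member, in order of letter. Each array's intensities were divided by their 75th percentile and brought back to a common level, so they carry arbitrary units. The percentile was taken over 91 probes that every array detected. Day 0 replicate 1 narrowed that set, as 244 probes were detected on all of the other 7 arrays. The values of a member can be compared between arrays, while those of different members cannot, since each probe binds with its own strength.

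miR-30a, the member best known for its repression of Becn1, had intensities of 136, 245 and 264 on the day 0 arrays. Its day 1 intensities were 197 and 120, and those of day 6 were 162, 186 and 265. The 2 lowest arrays, day 0 replicate 1 and day 1 replicate 2, were both immature, yet day 0 replicates 2 and 3 were among the 3 highest, so the groups overlapped. Its mean log2 intensity was 7.69 ± 0.52 in day 0 cells (SD, n = 3), 7.26 ± 0.51 in day 1 cells (n = 2) and 7.64 ± 0.36 in day 6 cells (n = 3). The log2 fold of day 6 against immature was 0.17 (SE 0.32, 95% interval -0.58 to 0.91, adjusted p = 0.871). In ratios that interval runs from 0.671 to 1.88, so a day 6 level of up to 1.88 times the immature one lay within it. The log2 fold was 0.018 without day 0 replicate 1 (95% interval -0.61 to 0.65), and 0.12 with the scaling also set anew. It turned just below 0 without day 1 replicate 2, at -0.012, and without day 6 replicate 3, at -0.034.

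miR-30b gave 470, 410 and 399 on day 0. The day 1 arrays gave 403 and 396, and the day 6 arrays 391, 311 and 387. Day 6 lay just below all immature arrays: its highest value, 391, and the lowest immature value, 396, were nearly the same. This was the only member whose day 6 and immature values did not overlap, as was so for 7.54% of all tested miRNAs. Its log2 fold was -0.19 (SE 0.18, 95% interval -0.61 to 0.22, adjusted p = 0.775), the smallest adjusted p among the members. Without day 0 replicate 1 the log2 fold was -0.16 (95% interval -0.48 to 0.17) and the other immature arrays, at 396 to 410, still lay above day 6. With the scaling also set anew on the other 7 arrays the groups overlapped, at 344 to 400 on day 6 against 358 to 424 in immature cells, with a log2 fold of -0.052 (95% interval -0.41 to 0.30).

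miR-30c is made from both the chromosome 1 and the chromosome 4 locus. Its intensities were 573, 495 and 595 on day 0. Those of day 1 were 501 and 544, and those of day 6 were 517, 388 and 661. The day 6 arrays held both the lowest and the highest of the 8 values and enclosed the immature range. The log2 fold of day 6 against immature was -0.07 (SE 0.22, 95% interval -0.59 to 0.44, adjusted p = 0.892). It was -0.062 without day 0 replicate 1 and turned to 0.042 when the scaling was also set anew. Without day 6 replicate 2, the lowest array, it was 0.12.

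miR-30d, whose hairpin gene shares chromosome 15 with that of miR-30b, had 117, 165 and 165 on day 0. Day 1 cells had 146 and 108, and day 6 cells 109, 122 and 144. The 2 highest values were from day 0 and the lowest from day 1, with the day 6 arrays within that span. The log2 fold of day 6 against immature was -0.13 (SE 0.22, 95% interval -0.64 to 0.38, adjusted p = 0.862). It was -0.21 without day 0 replicate 1 (95% interval -0.63 to 0.20), and -0.11 with the scaling also set anew.

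miR-30e had the widest range of the members on the log2 scale, with 59.4, 215 and 153 on day 0. The day 1 arrays had 151 and 56.6, and the day 6 arrays 112, 95.1 and 164. Day 0 replicate 1 and day 1 replicate 2 were low and the other 3 immature arrays at or above 151, with the day 6 arrays lying within the immature span. Its log2 mean was 6.97 ± 0.96 in day 0 cells (SD, n = 3), 6.53 ± 1.00 in day 1 cells (n = 2) and 6.91 ± 0.40 in day 6 cells (n = 3). The log2 fold of day 6 against immature was 0.17 (SE 0.50, 95% interval -1.01 to 1.34, adjusted p = 0.892). That interval spans ratios of 0.496 to 2.54, so a day 6 level of 0.496 or of 2.54 times the immature one lay at its ends. It turned below 0 without day 0 replicate 1, at -0.10 (95% interval -1.09 to 0.89), without day 1 replicate 2, at -0.19, and without day 6 replicate 3, at -0.056. Without day 0 replicate 1 and with the scaling set anew it was 0.0017 (95% interval -0.85 to 0.85).

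**Figure D2:**
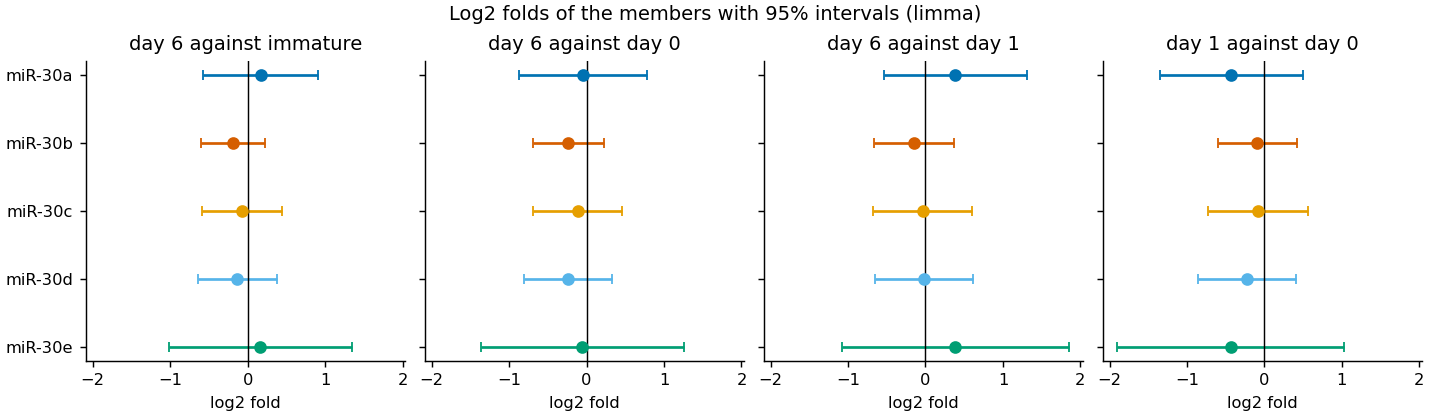
Log2 folds of the 5 members (points) with 95% intervals (bars) from limma in 4 comparisons, one panel each; positive values mean higher on the day named first. Every interval includes 0, and those of miR-30e are the widest, from -1.01 to 1.34 for day 6 against immature.

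The days were also compared one by one, and no member reached an unadjusted p under 0.05 in these comparisons. For day 6 against day 0, 0 of 5 members were called, beside 8 of 199 miRNAs, or 4.02%. All 5 log2 folds were below 0, from -0.24 to -0.05, with a median of -0.12 against 0.03 for all miRNAs, but all 5 were above 0 with scaling to control probes or to the percentile over all probes, where the median of all miRNAs had also moved, to 0.50 and 0.15. The largest in size were those of miR-30d, at -0.24 (95% interval -0.81 to 0.33), and miR-30b, at -0.24 (95% interval -0.70 to 0.22). miR-30b did not overlap between these days, as was so for 16.6% of all tested miRNAs, and its adjusted p of 0.609 was the smallest of the 5. Without day 0 replicate 1 the log2 folds were -0.35 for miR-30a, -0.17 for miR-30b, -0.090 for miR-30c, -0.41 for miR-30d and -0.59 for miR-30e, with an adjusted p of 0.276 for miR-30d, the smallest. With the scaling also set anew they were -0.22, -0.034, 0.041, -0.28 and -0.46 in the same order.

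For day 6 against day 1, 0 of 5 members were called and 0 of 199 miRNAs (0%) in all by limma, with 16 miRNAs at an unadjusted p under 0.05. miR-30a had a log2 fold of 0.38 (95% interval -0.54 to 1.31, adjusted p = 0.926) and miR-30e 0.38 (95% interval -1.08 to 1.85, adjusted p = 0.956). The values of miR-30b, miR-30c and miR-30d were -0.15, -0.03 and -0.02, and all 3 were above 0 under control-probe scaling. Without day 1 replicate 2 the value of miR-30e turned to -0.32 and that of miR-30a was 0.02, while without day 1 replicate 1 they were 1.09 and 0.74. miR-30b did not overlap between these days, beside 27.1% of all tested miRNAs. These comparisons share the day 6 arrays with those above and are not separate evidence.

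For day 1 against day 0, 0 of 5 members were called, beside 3 of 199 miRNAs, or 1.51%. The log2 folds were -0.43 for miR-30a, -0.09 for miR-30b, -0.08 for miR-30c, -0.23 for miR-30d and -0.44 for miR-30e, with adjusted p of 0.935 or more. All 5 were below 0 here and all 5 above 0 under scaling to the percentile over all probes, which put the median of all miRNAs at 0.38 and that of the members at 0.41. No member's days were separate, where 13.1% of all tested miRNAs had no overlap. Without day 0 replicate 1 the values were -0.73 for miR-30a (95% interval -1.55 to 0.098, adjusted p = 0.444), -0.39 for miR-30d and -0.97 for miR-30e (95% interval -2.27 to 0.32, adjusted p = 0.461). These were larger in size than with that array and not past the threshold. That comparison then rests on 2 arrays against 2.

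The members differed in how tightly arrays of 1 day agreed. The residual SD between arrays of the same day was 0.14 for miR-30b on the log2 scale, and 7 of the 199 tested miRNAs had a smaller one. It was 0.26 for both miR-30c and miR-30d, 0.46 for miR-30a and 0.80 for miR-30e, where 175 of 199 had a smaller one. The median over all tested miRNAs was 0.43. Of the 53 miRNAs detected on all arrays, with a median of 0.37, 2 had a smaller SD than miR-30b and 52 a smaller one than miR-30e. The brightest probes of miR-30b and miR-30c were among the 91 probes that set the scaling, so their spread is not independent of it. With day 0 replicate 1 left out, the SD was 0.13 for miR-30b, 0.29 for miR-30c, 0.21 for miR-30d, 0.36 for miR-30a and 0.60 for miR-30e, beside a median of 0.32, and 16 miRNAs had a smaller one than miR-30b and 171 a smaller one than miR-30e. miR-30b was thus near the steady end of these miRNAs and miR-30e near the variable end.

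**Figure D3:**
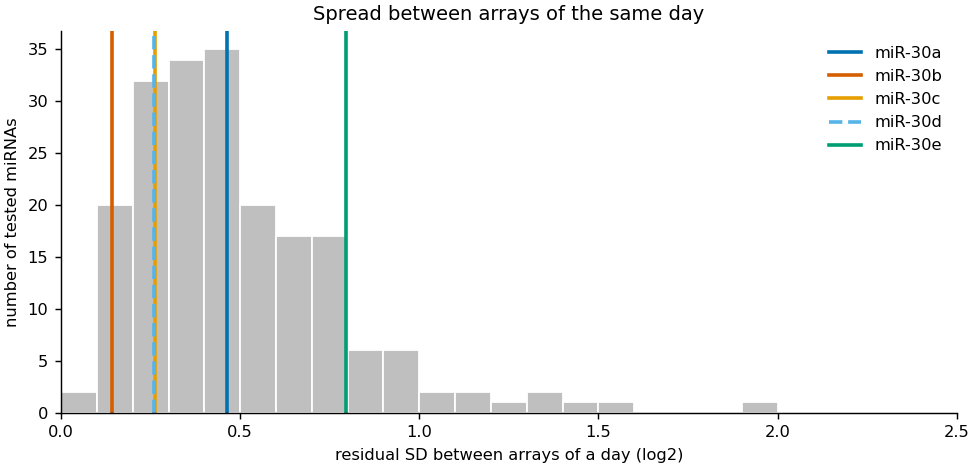
Number of tested miRNAs (199 in all) by the residual SD of their log2 values between arrays of a day, with lines at the 5 members. miR-30b stands at 0.14 near the low end, miR-30c and miR-30d at 0.26, miR-30a at 0.46 near the median of 0.43, and miR-30e at 0.80.

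Repeated spots of a probe on one array gave the precision within an array. The spots of miR-30e, the most variable member, had a median coefficient of variation of 12.7% within an array, at most 19.7%, over 9 to 10 spots on the 7 arrays that detected it, and of 36.1% on day 0 replicate 1, which did not. On the arrays that detected each, the same median was 10.0% for miR-30a over 5 to 6 spots, 8.05% for miR-30b, 8.62% for miR-30c and 8.05% for miR-30d. No spot of the arrays other than control spots was saturated.

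**Figure D4:**
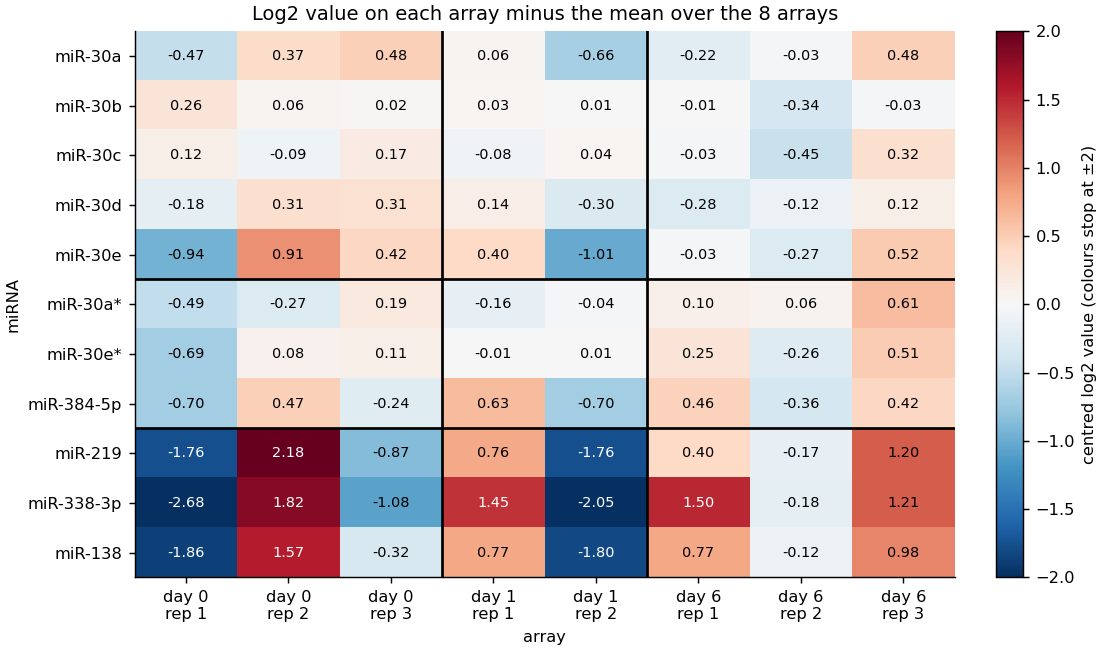
Log2 value on each array minus the mean over the 8 arrays (colour and number), for the 5 members (top), the related miR-30a*, miR-30e* and miR-384-5p (middle) and 3 oligodendrocyte miRNAs (bottom), with columns by day and replicate. miR-30a and miR-30e are low on day 0 replicate 1 (-0.47 and -0.94) and day 1 replicate 2 (-0.66 and -1.01), where the 3 oligodendrocyte miRNAs are low too, and on day 0 replicate 3 they are above their means (0.48 and 0.42) while those 3 are below.

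The members also differed in which arrays were high or low. Each member's log2 values were centred on their own mean over the 8 arrays, and the likeness of a pair was taken as the root mean square difference of these profiles, a small value meaning a close course. miR-30b and miR-30c were the closest pair at 0.163, and miR-30a and miR-30d followed at 0.226. miR-30a and miR-30e, which differ by 1 base, stood 0.327 apart. miR-30b and miR-30e were the farthest apart at 0.691, with 0.672 between miR-30c and miR-30e, which have neighbouring hairpins on chromosome 4. Without day 0 replicate 1 the closest pair was still miR-30b and miR-30c, at 0.165, and the farthest was miR-30c and miR-30e, at 0.577. All of these values come from the same 8 arrays and their shared scaling and have no test.

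The 2 lowest arrays of miR-30a and miR-30e were also the 2 lowest of the oligodendrocyte miRNAs, while day 0 replicate 3 differed between them. On day 0 replicate 1 and day 1 replicate 2, miR-30e had centred values of -0.94 and -1.01. There miR-338-3p had centred values of -2.68 and -2.05, and miR-219 was at -1.76 on both, its floor. None of miR-30a, miR-30e and miR-338-3p was well above background on day 0 replicate 1, so their values there are uncertain. On day 0 replicate 3 miR-338-3p, miR-219 and miR-138 were below their means, at -1.08, -0.87 and -0.32, and miR-30a and miR-30e above theirs, at 0.48 and 0.42. miR-30b and miR-30c had centred values of 0.26 and 0.12 on day 0 replicate 1, and of 0.01 and 0.04 on day 1 replicate 2. The part of cell makeup, array quality or their mixture in the values of miR-30a and miR-30e was not tested. The summed intensity of the 3 oligodendrocyte miRNAs was 861 to 2580 on the day 6 arrays and 168 to 3444 on the immature arrays, so it overlapped between the groups.

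Every member was measured by more than 1 probe, which share the sample but not the spots. All 11 probes were well above background on at least 3 arrays, 0 of the 11 were called for day 6 against immature, beside 0 of 377 probes (0%) in all by limma, and the smallest adjusted p among the 11 was 0.729. At an unadjusted p under 0.05 there were 0 of the 11 and 43 of the 377. Their log2 folds lay between -0.19 and 0.45, 5 above 0 and 6 below. The 3 probes of miR-30a gave 0.17, 0.28 and 0.45, brightest first, and those of miR-30e 0.17 and 0.18. The probes gave -0.19 and -0.14 for miR-30b, -0.07 and -0.10 for miR-30c, and -0.13 and -0.12 for miR-30d. Probes of 1 member thus had the same sign in all 5 cases on this scaling, and they share RNA and array, so they are not replicates. When day 0 replicate 1 was left out, the 11 log2 folds lay between -0.21 and 0.055, those of miR-30e turning to -0.10 and -0.14. Then 0 of the 11 and 18 of the 377 probes were called.

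**Figure D5:**
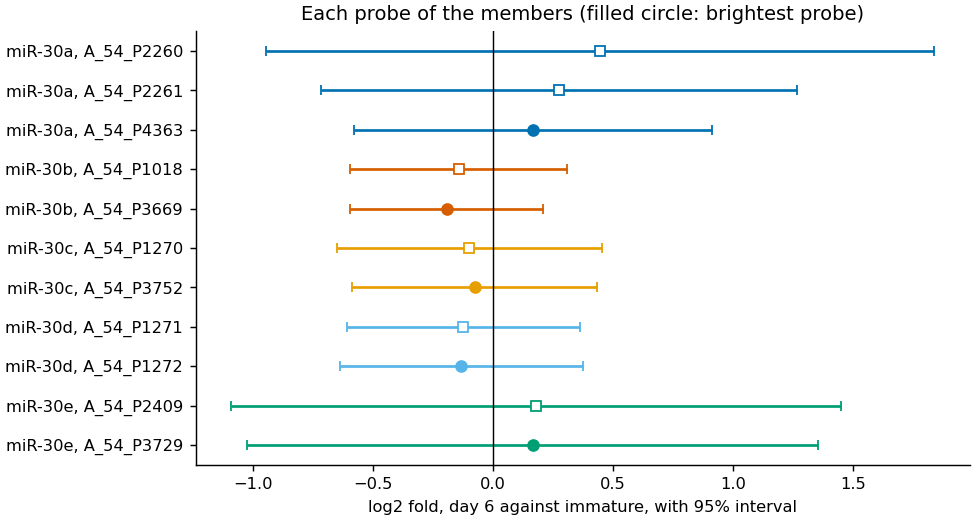
Log2 fold of day 6 against immature for each of the 11 probes of the members (filled circle for the brightest probe of a member, open square for the others), with 95% intervals from limma. Probes of a member lie on the same side of 0, from -0.19 to 0.45, and every interval includes 0.

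The star strands, cut from the other arm of the same hairpins, and miR-384 were read as related products. Of 7 such miRNAs on the array, miR-30a*, miR-30e* and miR-384-5p passed the detection filter. miR-30b*, miR-30c-1* and miR-30c-2* were detected on 0 arrays, and miR-384-3p on day 1 replicate 1 alone. The 2 detected star strands are near copies of each other and are shown with their seeds in capitals.
miR-30a*: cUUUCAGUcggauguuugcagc
miR-30e*: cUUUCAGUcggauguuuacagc

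miR-30a* (chr1:23272315-23272336, plus strand) and miR-30e* (chr4:120772618-120772639, minus strand) differ by G18A, with the miR-30a* base first. miR-30a* had 15.4, 21.5 and 29.6 in day 0 cells, 23.3 and 25.3 in day 1 cells, and 27.8, 27.2 and 39.7 in day 6 cells. Its day 6 arrays were above both day 1 arrays, as 27.1% of all tested miRNAs did not overlap between these days, and they overlapped with day 0. On day 0 replicate 1 and day 1 replicate 2 it was not well above background. The log2 fold of day 6 against immature was 0.40 (SE 0.24, 95% interval -0.15 to 0.96, adjusted p = 0.536), and 0.33 without day 0 replicate 1. These values are those of its brightest probe, and its other probe was detected on day 0 replicate 3 and day 6 replicate 3 alone.

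miR-30e* had 27.4, 46.9 and 47.8 in day 0 cells, 44.0 and 44.6 in day 1 cells, and 52.7, 36.9 and 62.8 in day 6 cells. Day 0 replicate 1 was again the lowest and not well above background, and the groups overlapped. The log2 fold of day 6 against immature was 0.25 (SE 0.28, 95% interval -0.40 to 0.89, adjusted p = 0.810), and 0.12 without day 0 replicate 1. On day 1 replicate 2, where miR-30e was at its lowest, miR-30e* was at a centred value of 0.01, and the 2 strands of this hairpin stood 0.517 apart by profile. miR-30a and miR-30a* stood 0.364 apart, while the star strands stood 0.206 from each other.

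miR-384-5p (chrX:105344332-105344354, minus strand), which shares the family's seed, had 41.5 and 25.4 on day 0 replicates 2 and 3, and a value below 0 on replicate 1. The day 1 arrays had 46.4 and 18.4, and the day 6 arrays 41.1, 23.4 and 39.9. Day 0 replicate 1 and day 1 replicate 2 were not well above background, as with miR-30a*. Its log2 fold was 0.27 (SE 0.41, 95% interval -0.70 to 1.23, adjusted p = 0.859), and 0.13 without day 0 replicate 1. That array entered the first of these folds at the floor of 18.4, and day 1 replicate 2 lay almost at the floor in both. These folds are those of its brightest probe, and the other probe of miR-384-5p, detected on 3 arrays, gave 0.050 over all arrays. By profile miR-384-5p stood closest among the members to miR-30e, at 0.370.

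Among the 51 mouse miRNAs outside the family that were detected on all 8 arrays, miR-9* had the profile most like the mean of the 5 members, at a root mean square difference of 0.163. It was followed by miR-103 at 0.197, miR-106b at 0.208, miR-26b at 0.222 and miR-16 at 0.226, where the median of the 51 was 0.427. For miR-30b the closest were miR-26b at 0.105 and miR-16 at 0.124, and for miR-30c miR-16 at 0.164 and miR-99a at 0.181. The closest to miR-30d were miR-9* at 0.167 and miR-26a at 0.204, and the closest to miR-30a were miR-9* at 0.222 and miR-130a at 0.252. For miR-30e the closest were miR-15a at 0.306 and miR-181a at 0.345, with a median of 0.731. A profile with a wide range lies farther from most others, so its distances are not comparable with those of steadier members. miRNAs not detected on day 0 replicate 1, as miR-30e was not, were outside the 51. Leaving out day 0 replicate 1, miR-15a at 0.193 took the place of miR-16 among the 5 closest to the members' mean and miR-106b at 0.180 that of miR-26a beside miR-30d, and the others named remained. A profile that hardly moves is close to any other that hardly moves, so these distances are a description over 8 arrays that share 1 scaling.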

How the data were processed

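Total RNA of 8 samples was measured on 1 slide with 1 scan date, per the file headers. The authors deposited each array's scanner output from Agilent Feature Extraction 9.5, per the file headers, with background-subtracted processed intensity per spot, not normalized between arrays. The deposited value table held the same intensities (largest difference 0), so its scale was linear and uncentred; its column medians over all spots were -7.30, 2.71 and 3.03 (day 0), 3.01 and 0.720 (day 1), and 2.70, 1.65 and 1.73 (day 6).

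From these, control spots and outlier spots were left out, spots of a probe were averaged, and the values of an array were divided by their 75th percentile, taken across 91 probes that every array detected. Values were floored at 18.4 (the 5th percentile of detected values) and put on the log2 scale, and the brightest probe stood for a miRNA. The test covered mouse miRNAs found on 3 or more arrays and used limma 3.58 in R 4.3, with 1 mean per day over all 8 arrays, eBayes, two-sided tests and Benjamini-Hochberg adjustment over 199 miRNAs. Intervals cover 95%. The number of arrays limits the precision. The limma step alone was tested on simulated log2 values. The scaling, detection call, floor and choice of probe were not part of that check.

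Members, related strands, marker lists and the rule for the most alike miRNAs (smallest root mean square difference of centred log2 values, detected on all arrays) were chosen with earlier results of these data known. Named miRNAs were all members with all their probes, the related strands on the array, and the 5 (family) or 2 (member) most alike. Whether replicate numbers pair samples could not be decided: deviations of same-numbered samples from their day means correlated between -0.710 and 0.317 in 7 pairs. Scaling, background correction, probe summary, floor, filter, array weights, blocks and leaving out each array were varied.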

Additional observations from a re-analysis of the deposited data

Results flagged for a closer look

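In each of the 8 miRNAs tested for a lone array (the 5 members and the 3 related strands that passed the filter), the highest or lowest of the 5 immature arrays was set against the others by its gap over the whole range, where 0.71 is Dixon's critical value; chance passes it in about 1 in 20 groups. It was passed in 2 of these 8, both by day 0 replicate 1, the array that stood apart.

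miR-30b had a gap share of 0.800: its log2 value on that array was 8.88, above the 8.63 to 8.68 of the other immature arrays. miR-30e* had a gap share of 0.852, with 4.77 on that array, where it was not well above background, below the 5.46 to 5.58 of the others. The part of the array's quality in either value was not tested.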

How the results depend on the processing

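In 26 alternative settings of each comparison no member was called, and the smallest adjusted p of any member was 0.195 (miR-30a, day 6 against immature, control-probe scaling). Signs were less steady; the cause was not tested. Over all tested miRNAs, calls ran from 0 to 17 (4 as reported) for day 6 against immature, 1 to 16 (8) for day 6 against day 0, 0 to 9 (0) for day 6 against day 1 and 1 to 4 (3) for day 1 against day 0. Values below are log2 folds whose sign turned. For day 6 against immature, no scaling gave -0.17 for miR-30a and -0.17 for miR-30e (median of all miRNAs -0.28), control-probe scaling gave 0.35, 0.47 and 0.41 for miR-30b, miR-30c and miR-30d (median 0.55), quantile normalization 0.025 for miR-30d, and array weights -0.024 for miR-30a and -0.030 for miR-30e. For day 6 against day 0, in the order miR-30a to miR-30e, the percentile over all probes gave 0.32, 0.12, 0.25, 0.12 and 0.30 (median 0.15) and control probes 0.47, 0.27, 0.40, 0.27 and 0.46 (median 0.50). Quantile normalization gave 0.23 for miR-30a, 0.12 for miR-30d and 0.40 for miR-30e, and miR-30a was at 0.16 as the mean of its probes and 0.061 as their sum. For day 6 against day 1, control probes gave 0.43, 0.54 and 0.56 for miR-30b, miR-30c and miR-30d (median 0.58), quantile normalization 0.036 and array weights 0.015 for miR-30c, and normexp 0.033 for miR-30d. For day 1 against day 0, the percentile over all probes gave 0.20, 0.54, 0.55, 0.41 and 0.19 from miR-30a to miR-30e (median 0.38), and quantile normalization 0.19 for miR-30d and 0.15 for miR-30e. Leaving out 1 array in turn, day 6 against immature ran from -0.034 to 0.35 for miR-30a, -0.26 to 0.12 for miR-30c and -0.19 to 0.52 for miR-30e. Day 6 against day 0 ran from -0.35 to 0.13 for miR-30a, -0.30 to 0.081 for miR-30c and -0.59 to 0.34 for miR-30e. Day 6 against day 1 ran from -0.22 to 0.16 for miR-30c, -0.24 to 0.20 for miR-30d and -0.32 to 1.09 for miR-30e, and day 1 against day 0 from -1.14 to 0.27 for miR-30e. Leaving out day 0 replicate 1 with new scaling, a setting chosen after seeing the data, gave miR-30c 0.042 for day 6 against immature, 0.041 against day 0 and 0.044 against day 1, miR-30d 0.060 for day 6 against day 1 and miR-30b 0.035 for day 1 against day 0. Keeping to miRNAs detected on all arrays left miR-30b and miR-30c.

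With the replicate number as a block, 0 members were called in each comparison and 0, 1, 0 and 2 of all miRNAs in the order above, and miR-30c turned to 0.037 for day 1 against day 0. Deviations of same-numbered samples from their day means correlated between -0.710 and 0.317. Deviations within a day sum to 0, so with so few arrays this does not settle whether the numbers pair the samples. With 2 or 3 arrays a day the intervals are wide, and a member not called may still have changed by an amount within its interval. The size of change that could be detected was not computed.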
